A study of Mus musculus with 14 samples.

Results

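The comparison described here sets 5 arrays of pancreatic islets from diabetic IKK2-CApdx-1 mice (IKK2-CA below) against 5 arrays of islets from control mice, chosen by their titles, out of 14 arrays in the series. All 19938 genes for which the array holds a measurement annotated to that gene alone were compared, each by 1 measurement. The IKK2-CA mice carry the driver Pdx-1-tTA, which places the tetracycline transactivator under the Pdx-1 gene, and through it make constitutively active IKK2 in their β-cells. The remaining 4 arrays are of Pdx-1+/- mice, which carry the driver allele and so have 1 working copy of Pdx-1. Mice of every group were 11 weeks old, of mixed C57BL/6 and NMRI stock and untreated before islets were taken. The labels give no alleles for the control mice. Nothing in them tells whether arrays of a group came from separate mice, so the p-values measure the spread between arrays, which may be technical. A difference between IKK2-CA and control islets joins 3 things that cannot be told apart in these 2 groups: the driver allele at Pdx-1, active IKK2 and diabetes. The Pdx-1+/- values are therefore given beside it, and both comparisons use the same control arrays.

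IKK2 is the kinase that marks the inhibitor of NF-κB for destruction, which frees NF-κB to enter the nucleus and turn on genes for chemokines, adhesion molecules, antigen presentation and its own inhibitors. Constitutively active IKK2 does this without an outside signal. PDX1 is the homeodomain factor that β-cells need for insulin production and glucose sensing. It acts with MAFA, NKX6-1 and other factors on the genes for the glucose transporter GLUT2, for insulin and for the secretory machinery. In diabetic islets, β-cells can lose these products, and leukocytes can gather in and around the islet.

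The values are log2 RMA signals, in which 1 unit is a 2-fold difference, and they compare arrays for the same gene rather than genes with each other. Array medians lay between 6.45 and 6.55, and replicates of a group correlated at 0.986 to 0.993 for control, 0.974 to 0.993 for IKK2-CA and 0.968 to 0.993 for Pdx-1+/-. The islet hormones Ins2, Gcg, Sst and Ppy read above 11.6 on all 14 arrays. Xist read 3.66 to 3.99 on every array and the Y-linked Eif2s3y 7.63 to 8.44, with no difference between groups. The probes for Ikbkb, the gene of IKK2, read 7.43 ± 0.09 on control and 7.68 ± 0.22 on IKK2-CA arrays (SD, n = 5 each; limma adjusted p = 0.283); it is not known whether they match the transgene, so this value checks nothing about the genotype. Adipocyte or intestinal markers were high on 3 arrays, called the arrays with genes of other tissues below. The 24 adipocyte markers averaged 1.66 log2 above the control mean on IKK2-CA array 5. The 31 intestinal markers averaged 0.93 above it on control array 3 and 2.17 on Pdx-1+/- array 4.

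In IKK2-CA islets 136 genes (0.682% of those tested) were higher and 312 (1.56%) were lower than in control islets at an adjusted p under 0.05 (limma, Benjamini-Hochberg over all genes), 448 in all or 2.25%. With a difference of at least 2-fold, 74 higher genes (0.371%) and 78 lower genes (0.391%) passed. Among the called genes the median fold was 2.08 for higher and 1.64 for lower genes. A wider spread needs a larger difference to pass, and the higher genes had the wider spread given below, so these medians do not rank rises and falls. Rises of at least 4-fold numbered 10, and falls of that size 7. Arrays of the 2 groups did not overlap for 128 of the 136 higher and 210 of the 312 lower genes. Over all genes 371 (1.86%) did not overlap in the higher and 467 (2.34%) in the lower direction, 838 or 4.2% in all. Calls rest on the same arrays, so the separation of called genes is a description and no further support. The median difference over all genes was -0.01. Genes that rose were spread more widely among the IKK2-CA arrays, with a median SD of 0.581 against 0.202 among control arrays, and 127 of 136 had the larger SD in IKK2-CA. For the genes that fell the 2 median SDs were 0.233 and 0.245. Over all genes they were 0.172 and 0.143, and 12520 of 19938 (62.8%) had the larger SD in IKK2-CA. The fit pooled the variance of each gene over control, IKK2-CA and Pdx-1+/- arrays. For genes that rose with a wider spread among IKK2-CA arrays, the SE and adjusted p given below can therefore be too small.

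**Figure D1:**
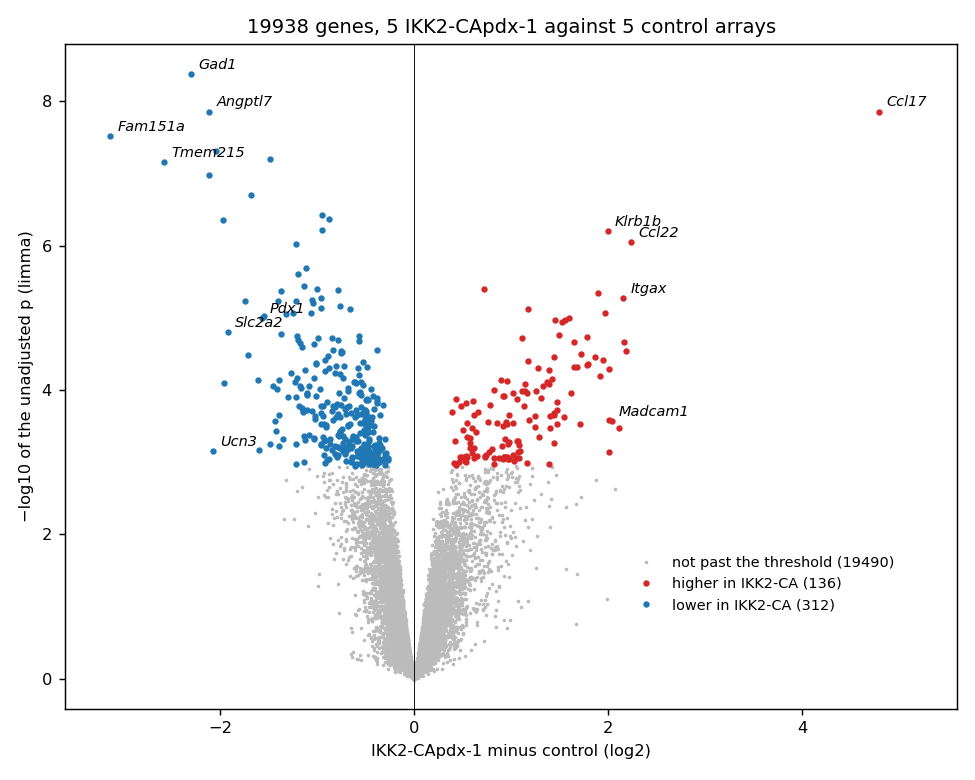
Difference between IKK2-CA and control islets (x axis, log2) against the −log10 of the unadjusted limma p (y axis) for 19938 genes; red points are the 136 genes higher and blue points the 312 genes lower at an adjusted p under 0.05. Ccl17 stands alone at a difference of 4.80, and most blue points lie between 0 and -1.

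The size of these counts depended on single arrays. Leaving out 1 array at a time gave 41 to 324 higher and 79 to 656 lower genes, and every one of the 10 arrays moved the lower count by over 1.5 times. The lowest counts, 41 and 79, came without control array 3 and the highest, 324 and 656, without IKK2-CA array 4. The higher count also moved by over 1.5 times without control array 1 (64), 4 (54) or 5 (63) or IKK2-CA array 3 (65). Whichever array was left out, 113 genes passed in each of the 10 fits, 36 of them higher and 77 lower, and no called gene changed direction. Of 81 named genes past the threshold, 23 were not called in the fit of only the 2 groups and 24 were not called without the 3 arrays with genes of other tissues. Of these, Mafa, Gipr, Cd74 and Madcam1 had adjusted p values of 0.091, 0.0601, 0.0504 and 0.084 without the 3 arrays.

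The gene and marker lists below and their members were chosen with earlier results of these data known. Their shares are therefore descriptions and not tests. Chemokines are secreted proteins that draw leukocytes into tissue. Of 48 measured chemokines and chemokine receptors, 10 rose (20.8%, against 0.682% of all genes) and none fell, with a median difference of 0.33 over the list. Ccl17 and Ccl22, the 2 ligands of the receptor CCR4 that attract T cells, rose most in this list. Ccl17 read 11.16, 10.76, 9.14, 11.06 and 11.98 on IKK2-CA arrays 1 to 5, and 5.08, 6.22, 5.69, 6.12 and 7.01 on control arrays 1 to 5. The lowest IKK2-CA array lay more than 2 log2 units above the highest control array, and the difference was 4.80 ± 0.42 (SE), a 27.8-fold rise (limma adjusted p = 9.29e-05). In Pdx-1+/- islets Ccl17 stayed between 6.08 and 6.28, 0.18 from control (adjusted p = 0.999). Ccl22 read 7.75, 6.75, 6.80, 7.25 and 8.39 on IKK2-CA and 4.78, 5.21, 4.73, 5.25 and 5.78 on control arrays, without overlap, and was 4.72-fold higher (difference 2.24 ± 0.27, adjusted p = 0.00118).

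Ccl22, Cx3cl1 and Ccl17 are consecutive tested genes on mouse chromosome 8 in RefSeq's gene order, and all 3 rose. Cx3cl1 encodes fractalkine, a membrane-bound chemokine, and was 1.66-fold higher (0.73 ± 0.17, adjusted p = 0.0438), with 7.15, 7.12, 7.94, 7.16 and 7.90 on IKK2-CA and 6.5, 6.64, 6.97, 7.01 and 6.48 on control arrays. None of the 10 tested genes nearest to them, 5 on each side, passed, and their differences lay between -0.08 and 0.28. The 3 genes were looked at together after their values were seen. The call for Cx3cl1 was lost without any control array or without IKK2-CA array 3 or 5 (adjusted p up to 0.114), and in the fit of only the 2 groups.

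The promoters of Ccl22 and Ccl17 (RefSeq, GRCm38.p6, 250 bases before the start, + strand) are printed because these 2 genes rose most in the chemokine list. Capitals mark matches to GGG, any 5 bases and CC, a loose form of the sequence that NF-κB binds, searched on both strands with overlapping matches allowed.
Ccl22, chr8:94745434-94745683: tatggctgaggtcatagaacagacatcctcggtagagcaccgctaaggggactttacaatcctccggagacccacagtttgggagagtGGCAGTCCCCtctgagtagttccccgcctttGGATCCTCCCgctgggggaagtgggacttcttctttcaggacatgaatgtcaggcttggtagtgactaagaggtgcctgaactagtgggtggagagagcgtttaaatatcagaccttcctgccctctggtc
Ccl17, chr8:94810203-94810452: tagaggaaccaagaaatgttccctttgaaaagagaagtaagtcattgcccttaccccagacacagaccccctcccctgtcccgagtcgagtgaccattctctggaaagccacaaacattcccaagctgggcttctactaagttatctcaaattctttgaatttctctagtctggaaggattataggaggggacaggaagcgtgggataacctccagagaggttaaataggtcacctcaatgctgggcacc
The Ccl22 window holds 2 matches and the Ccl17 window 0. Such a match is common: 55 of 101 promoters of higher genes (54.5%), 162 of 259 of lower genes (62.5%) and 8280 of all 15563 tested genes with a promoter in the table (53.2%) hold at least 1. A match is a description of the letters and not a binding site.

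The other chemokine genes that rose were Ccl19, Ccl5, Cxcl16 and the receptors Ccr7, Xcr1, Ccr2 and Cxcr6. Ccr7 is the receptor that guides dendritic cells and T cells to lymph nodes, and Ccl19 is one of its ligands. Ccr7 read 7.96, 7.88, 8.61, 8.14 and 9.31 on IKK2-CA arrays and 6.89, 7.10, 6.40, 6.76 and 6.79 on control arrays, a 3.01-fold rise without overlap (1.59 ± 0.24, adjusted p = 0.0048). Ccl19 rose 2.81-fold, from 7.29 to 7.73 in control to 8.27 to 9.78 in IKK2-CA islets (1.49 ± 0.24, adjusted p = 0.00715). Ccl5, a chemokine made by T and natural killer cells, was 2.71-fold higher (1.44 ± 0.24, adjusted p = 0.00962), reading 8.78 to 10.34 against 7.78 to 8.24. In Pdx-1+/- islets the differences of these 3 genes from control were -0.03, 0.14 and -0.19. Without control array 3 the list held 6 calls instead of 10, and without IKK2-CA array 5 its median was 0.209.

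**Figure D2:**
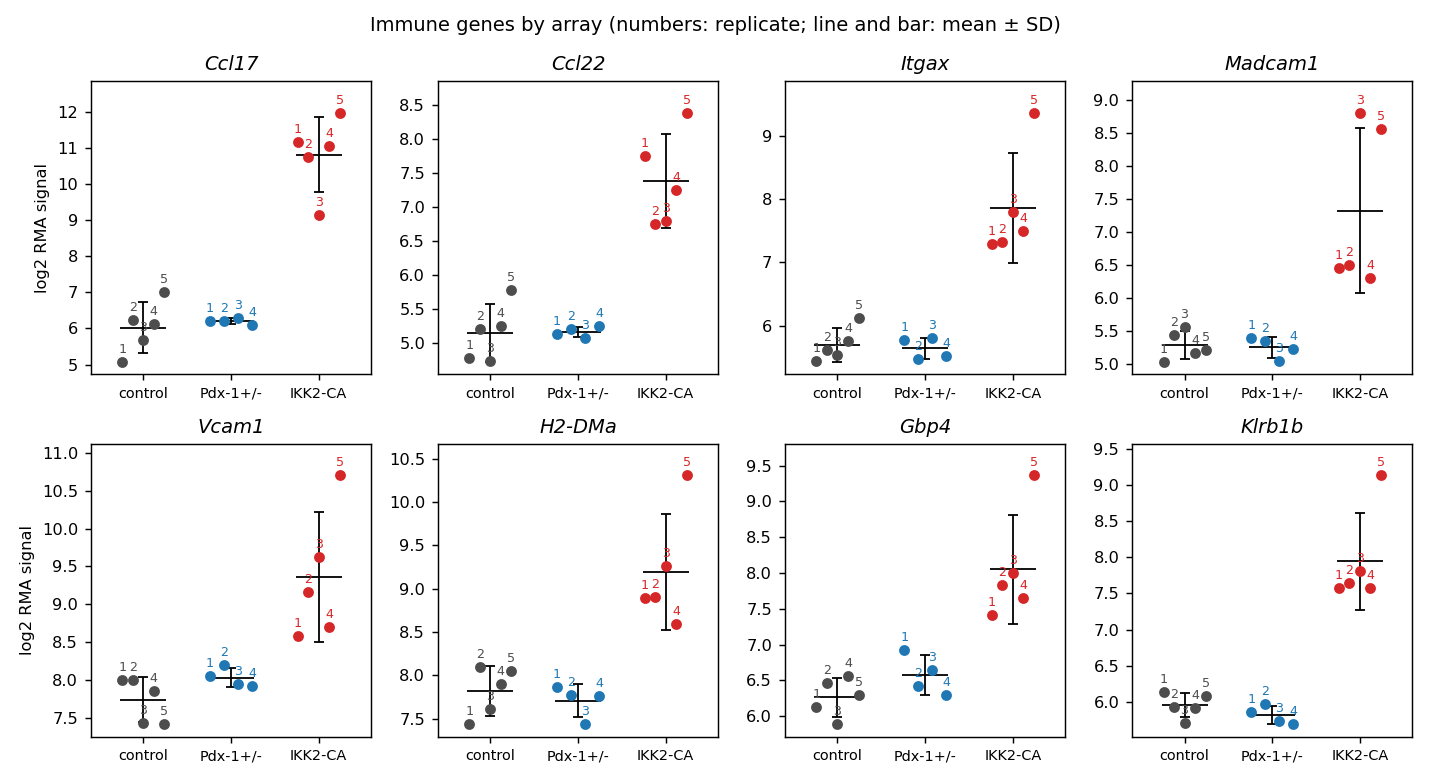
Log2 RMA signal (y axis) of 8 immune genes on each array of control, Pdx-1+/- and IKK2-CA islets (x axis); numbers are replicates, lines means and bars SD. In every panel the 5 IKK2-CA arrays lie above all control and Pdx-1+/- arrays, and array 5 is the highest in all but Madcam1.

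Adhesion molecules and addressins let leukocytes leave blood vessels and settle in tissue. Of the 28 measured, 7 rose (25%, against 0.682% of all genes) and none fell (median difference 0.46). Madcam1, the vascular addressin through which lymphocytes enter gut and inflamed islets, read 6.45, 6.5, 8.81, 6.30 and 8.56 on IKK2-CA arrays and 5.04 to 5.57 on control arrays. The groups did not overlap, arrays 3 and 5 lay over 2 units above the other three, and the rise was 4.10-fold (2.04 ± 0.43, adjusted p = 0.0242). Vcam1, an NF-κB target on vessels that binds lymphocytes and monocytes, rose 3.07-fold, from 7.41 to 8.0 on control to 8.58 to 10.70 on IKK2-CA arrays (1.62 ± 0.31, adjusted p = 0.0162). Itgax and Itgae, the integrin chains CD11c and CD103 carried by dendritic cells, rose 4.46-fold and 3.72-fold. The other members that rose were Itgal, Selplg and Cd44. The call for Madcam1 was lost without any 1 of control arrays 1, 3, 4 and 5 (adjusted p up to 0.067), and that for Vcam1 without control array 3 (0.0574). Without control array 1, 3, 4 or 5 or IKK2-CA array 2 or 3 the list held 2 to 4 calls. The fit of only the 2 groups gave 3, and leaving out the 3 arrays with genes of other tissues gave 4 with a median of 0.235.

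Dendritic cell genes formed the marker list with the most calls. Of 27 measured dendritic cell markers 14 rose (51.9%, against 0.682% of all genes) and none fell, with a median difference of 0.94. They were Itgax, Itgae, Ccr7, Plbd1, Fscn1, Xcr1, Flt3, Clec9a, Wdfy4, Cd209a, Cd207, Ciita, Il12b and Irf8. The lists share members: Itgax, Itgae, Ccr7 and Xcr1 are also counted in lists above, and Ciita, Il12b and Irf8 in lists below. XCR1 and CLEC9A mark the dendritic cells that present antigen to CD8 T cells, FLT3 is the growth factor receptor of dendritic cell precursors, and fascin and CCR7 mark mature, migrating dendritic cells. Itgax read 7.29, 7.32, 7.80, 7.5 and 9.36 on IKK2-CA arrays and 5.44, 5.62, 5.54, 5.76 and 6.12 on control arrays. The groups did not overlap and array 5 stood over 1.5 units above the others; the difference was 2.16 ± 0.31 (adjusted p = 0.00395). Itgae read 6.89, 7.20, 6.95, 6.54 and 8.44 against 4.98 to 5.61 (1.90 ± 0.27, adjusted p = 0.00377). Plbd1 rose 2.74-fold (1.46 ± 0.22, adjusted p = 0.00485). On Pdx-1+/- arrays Itgax, Itgae and Plbd1 were within 0.10 of control.

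Averaged over the 27 dendritic cell markers, IKK2-CA arrays 1 to 5 lay 0.659, 0.754, 0.834, 0.600 and 1.638 above the control mean. Control arrays lay between -0.171 and 0.119 and Pdx-1+/- arrays between -0.124 and 0.178. Thus no IKK2-CA array overlapped, and array 5, the array with high adipocyte markers, was the highest. With array 5 left out 13 members were called, without control array 3 there were 9, and without the 3 arrays that showed genes of other tissues there were 13, with a list median of 0.607. In bulk RNA, more dendritic cells and more RNA of these genes per cell cannot be told apart, and the same holds for fewer β-cells and less RNA per β-cell further below.

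Markers of other leukocytes were counted in the same way. Of 34 macrophage and monocyte markers 3 rose (8.82%, against 0.682% of all genes), Mmp12, Mpeg1 and Ccr2. The list median of 0.23 came to 0.0948 without IKK2-CA array 5 and to 0.000572 without the 3 arrays with genes of other tissues. Mmp12, macrophage elastase, read 7.94, 7.62, 6.53, 7.90 and 9.52 on IKK2-CA arrays and 5.58 to 5.93 on control arrays, a 4.55-fold rise without overlap (2.19 ± 0.37, adjusted p = 0.00886). Of 33 T and natural killer cell markers 2 rose (6.06%), Klrb1b and Ccl5, with a median of 0.35. Klrb1b, an inhibitory receptor of natural killer cells whose probes may also take up RNA of its close relatives, was 3.98-fold higher at 7.57, 7.65, 7.81, 7.57 and 9.13 against 5.71 to 6.14 (1.99 ± 0.24, adjusted p = 0.000895). None of 21 B cell and none of 18 neutrophil and mast cell markers passed in limma, with medians of 0.31 and 0.02. At an unadjusted p under 0.05, 6 and 4 were higher and 0 lower, against 1236 higher and 1888 lower over all 19938 genes. Without IKK2-CA array 4 the calls were 2 and 1. Blk and Fcer2a, the B cell markers with the smallest p, differed by 0.34 and 0.68 (adjusted p = 0.16 and 0.216). Of 15 genes typical of lymph nodes 3 rose, Ccl19, Ccr7 and Madcam1, which stand in the lists above too. Averaged over members, the macrophage and the T and natural killer cell list were highest on array 5 and lowest on array 4 of the IKK2-CA group: 1.164 and -0.013 for macrophages, 1.118 and 0.019 for T and natural killer cells, in log2 from the control mean. Without control array 3 the macrophage list had 1 call, and without IKK2-CA array 4 it had 7 and the T and natural killer cell list 8. Without IKK2-CA array 5 the macrophage list had 5. Mpeg1 lost its call without control array 3 (adjusted p = 0.0561) and Ccr2 without control array 1, 3 or 4 or IKK2-CA array 2 or 3 (up to 0.0816).

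**Figure D3:**
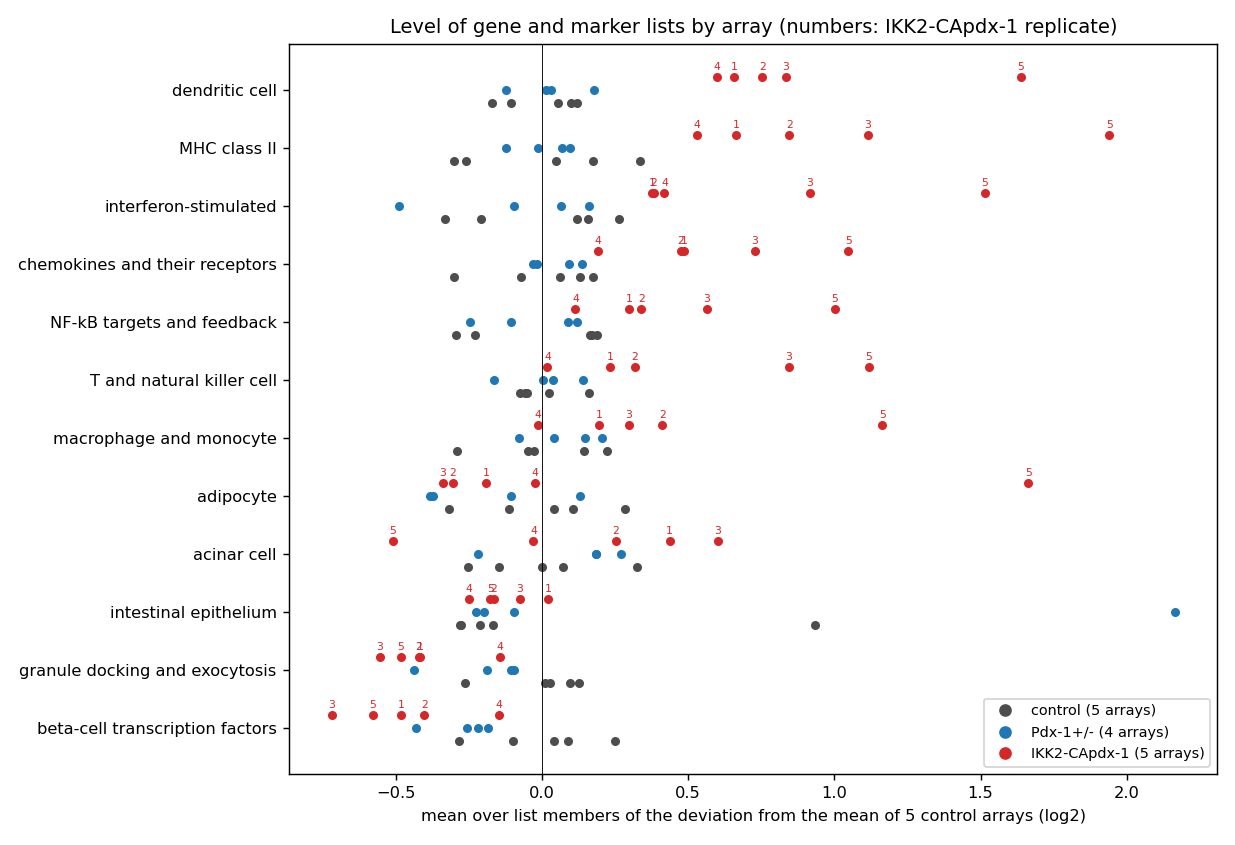
Mean deviation of each array from the control mean (x axis, log2) for 12 gene or marker lists (y axis); each point is an array, and numbers give the IKK2-CA replicate. Dendritic cell and MHC class II points of IKK2-CA lie right of all control points, and IKK2-CA array 5 is far right for adipocyte markers. The β-cell transcription factor and granule points of IKK2-CA lie to the left. Array 4 is within the control range there, at -0.146 and -0.143 against lowest control values of -0.282 and -0.264.

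MHC class II molecules present peptides to CD4 T cells. Of 11 measured MHC class II genes 6 rose (54.5%, against 0.682% of all genes) and all 11 had a positive difference. The median was 1.02, against 0.01 in Pdx-1+/- islets. CIITA is the master activator of these genes, CD74 the invariant chain and H2-DMa part of the peptide loader. H2-DMa read 8.89, 8.90, 9.26, 8.59 and 10.31 on IKK2-CA and 7.43, 8.09, 7.61, 7.90 and 8.05 on control arrays, a 2.59-fold rise without overlap (1.37 ± 0.25, adjusted p = 0.014). Cd74 read 11.58, 11.79, 12.03, 11.53 and 12.50 against 10.49, 11.20, 10.40, 11.06 and 11.19, also without overlap, and was 2.03-fold higher (1.02 ± 0.19, adjusted p = 0.0162). Ciita was 1.97-fold and H2-Ab1 2.37-fold higher (adjusted p = 0.0219 and 0.0262), and H2-Aa and Ifi30, a lysosomal thiol reductase, were the other members called. The list's call count fell to 2 without control array 1 or 4 or IKK2-CA array 3 and to 0 without control array 3, where the adjusted p was 0.0509 for H2-DMa and 0.053 for Cd74. Ciita lost its call without control array 1, 3 or 4 or IKK2-CA array 3 (up to 0.0686), and H2-Ab1 without these or IKK2-CA array 2 (up to 0.0914). The dendritic cell markers described above rose on the same arrays, and their part in these values was not tested. The fit of only the 2 groups gave 2 calls in this list, and leaving out the 3 arrays with genes of other tissues gave 3.

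MHC class I genes and the immunoproteasome showed 1 call among 20 (5.0%, against 0.682% of all genes higher), H2-M2, although 19 of 20 differences were positive (median 0.39). H2-M2, a class Ib molecule, read 5.97, 5.74, 8.07, 6.20 and 8.61 on IKK2-CA arrays and 4.37 to 5.03 on control arrays (2.11 ± 0.45, adjusted p = 0.0267). Arrays 3 and 5 carried most of the difference, as for Madcam1, and the call was lost without control array 1, 3, 4 or 5 or IKK2-CA array 3 (adjusted p up to 0.0816). Without IKK2-CA array 4 the list had 6 calls. Co-stimulation and checkpoint genes had 3 calls among 30, all higher: Havcr2, Cd80 and Il2ra. Havcr2 encodes the checkpoint receptor TIM-3 and read 6.84, 7.18, 7.99, 7.21 and 9.24 against 5.43 to 5.94, a 3.85-fold rise (1.94 ± 0.33, adjusted p = 0.0102). Cd80, a ligand of CD28, was 1.89-fold higher (0.92 ± 0.20, adjusted p = 0.0258), and Il2ra, a chain of the interleukin-2 receptor, 1.95-fold (adjusted p = 0.0448). Cd80 lost its call without control array 3, 4 or 5 or IKK2-CA array 3, and Il2ra without any array but IKK2-CA 2, 4 or 5 (adjusted p up to 0.0874 and 0.127). The list had 1 call without control array 3, 4 or 5 or IKK2-CA array 3, and 11 without IKK2-CA array 4. With the acinar covariate it had 6, and its median of 0.50 was 0.316 without IKK2-CA array 5.

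Of 55 measured NF-κB targets and feedback genes 6 rose (10.9%, against 0.682% of all genes) and none fell. The median was 0.39 and 47 differences were positive. Those that rose were Vcam1, Cd80, Il12b and the feedback inhibitors Tnip1, Tnip3 and Nfkbie. Vcam1, Cd80 and Il12b are also counted in lists above. Tnip1 encodes a partner of the ubiquitin editor A20 and read 7.06, 6.97, 7.34, 6.89 and 7.62 on IKK2-CA and 6.56, 6.74, 6.37, 6.57 and 6.66 on control arrays. The groups did not overlap, and the rise was 1.51-fold (0.60 ± 0.13, adjusted p = 0.0267). Il12b, the p40 chain of interleukin-12, was 1.95-fold higher (0.96 ± 0.22, adjusted p = 0.0362), with 1 IKK2-CA array, at 5.48, below the highest control array at 5.57. The list was sensitive to single arrays, with 0 calls without control array 3, 1 without control array 4 or 5 or IKK2-CA array 3, 2 without control array 1, 3 without IKK2-CA array 2 and 17 without IKK2-CA array 4. It had 10 under array median centring, 13 with the acinar covariate, 2 in the fit of only the 2 groups and 3 without the 3 arrays with genes of other tissues, and its median was 0.197 without those arrays. The calls for Tnip1 and Il12b were among those lost (adjusted p up to 0.0937 and 0.12, both without control array 3).

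Interferon-stimulated genes had a list median of 0.65 over 45 genes, of which 42 had a positive difference. As higher 4 passed (8.89%, against 0.682% of all genes): Gbp4, Ifi209, Irf8 and Rtp4. Gbp4, a guanylate-binding protein induced by interferon-γ, read 7.41, 7.84, 7.99, 7.65 and 9.36 on IKK2-CA and 6.12, 6.46, 5.89, 6.56 and 6.29 on control arrays, a 3.45-fold rise without overlap (1.78 ± 0.29, adjusted p = 0.00715). Ifi209, of a family of DNA sensors with similar copies that its probes may not separate, read 5.43, 5.93, 6.78, 5.87 and 8.43 against 4.02 to 4.69 (2.01 ± 0.42, adjusted p = 0.024). Irf8, a factor needed by dendritic cells and macrophages, and Rtp4 were 2.13-fold and 2.25-fold higher (adjusted p = 0.0406 and 0.0479). Averaged over the list, IKK2-CA arrays 3 and 5 lay 0.916 and 1.515 above control and arrays 1, 2 and 4 between 0.378 and 0.419. The list had 1 call without control array 1, 3, 4 or 5 or IKK2-CA array 3, 7 without control array 2 and 10 without IKK2-CA array 4. The calls lost in these fits were those of Ifi209, Irf8 and Rtp4, with adjusted p values up to 0.0816, 0.128 and 0.15. Adding the mean of the acinar markers as a covariate gave 15 calls in this list, quantile normalization 7 and the fit of only the 2 groups 1. Without the 3 arrays with genes of other tissues the median was 0.386.

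Promoter stretches of 4 further genes that rose are shown because they hold letters like those bound by NF-κB or by interferon-induced factors (RefSeq, GRCm38.p6). Capitals mark the NF-κB-like letters in Madcam1 and Tnip1, and GAAA, any 2 bases and GAAA, a loose form of the interferon response element, in Ccl19 and Gpr141b.
Madcam1, chr10:79664450-79664509, + strand: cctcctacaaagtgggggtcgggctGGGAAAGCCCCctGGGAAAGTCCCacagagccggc
Tnip1, chr11:54962964-54963023, - strand: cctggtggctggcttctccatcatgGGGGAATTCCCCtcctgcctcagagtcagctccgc
Ccl19, chr4:42756539-42756598, - strand: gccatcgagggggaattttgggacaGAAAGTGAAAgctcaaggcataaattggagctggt
Gpr141b, chr13:19732952-19733011, - strand: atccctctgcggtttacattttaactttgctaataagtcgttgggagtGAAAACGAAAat
The Madcam1 stretch holds 4 overlapping matches on both strands in 2 runs and the Tnip1 stretch 3 in 1 run. The interferon-type motif, on either strand, was found in 7 of 101 promoters of higher genes (6.93%), 3 of 259 of lower genes (1.16%) and 455 of all 15563 (2.92%). Gpr141b, an orphan G protein-coupled receptor, read 7.06, 7.08, 7.52, 6.60 and 8.79 on IKK2-CA arrays and 5.36 to 5.59 on control arrays, without overlap (3.91-fold, 1.97 ± 0.29, adjusted p = 0.00451).

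Among proteases, 3 of 31 matrix metalloproteinases and inhibitors rose (9.68%, against 0.682% of all genes), Mmp12, Adam8 and Mmp25, and the median of the list was 0.04. Adam8, a membrane protease of leukocytes, was 2.25-fold higher, at 7.44, 7.15, 7.30, 7.19 and 8.20 against 6.06 to 6.66 (1.17 ± 0.17, adjusted p = 0.00434). Mmp25, a membrane-type metalloproteinase of leukocytes, was 1.88-fold higher (adjusted p = 0.017) and lost its call without control array 4 or IKK2-CA array 3 (adjusted p up to 0.0553). Complement and acute phase genes had 1 call among 34 (2.94%), Serpina1c, of the α1-antitrypsin family whose near-identical copies these probes may not separate. It read 4.64, 4.65, 6.81, 4.75 and 7.55 against 3.44 to 3.79 (2.01 ± 0.47, adjusted p = 0.0415), so arrays 3 and 5 again lay above the others, and it lost its call without any control array or without IKK2-CA array 3 (adjusted p up to 0.11). Dnase1l3, a secreted DNase of dendritic cells and macrophages, rose 4.02-fold (2.01 ± 0.35, adjusted p = 0.0114), and D17H6S56E-5 4.48-fold (2.16 ± 0.35, adjusted p = 0.00727).

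Serpina7, which encodes thyroxine-binding globulin, was the one gene among the 15 largest rises whose Pdx-1+/- mean also lay more than 1 unit above control. It read 6.87, 7.5, 7.73, 7.96 and 8.22 on IKK2-CA arrays, 6.54, 5.24, 5.87, 5.69 and 5.37 on control arrays and 7.94, 8.19, 7.09 and 6.35 on Pdx-1+/- arrays. The IKK2-CA and control arrays did not overlap (3.77-fold, 1.91 ± 0.35, adjusted p = 0.0131), while the Pdx-1+/- arrays did overlap with control (1.65, adjusted p = 0.172) and with IKK2-CA. For the other 14 rises the Pdx-1+/- difference from control was between -0.22 and 0.22. Direct tests of IKK2-CA against Pdx-1+/- islets called 15 genes higher (0.0752%) and 0 lower (limma; 862 and 537 at an unadjusted p under 0.05), among them Ccl17 (4.62, adjusted p = 0.000963), Klrb1b (2.13, adjusted p = 0.00567), Ccl22 (2.23, adjusted p = 0.0128), Gpr141b (2.19, adjusted p = 0.0214) and Itgax (2.21, adjusted p = 0.0224).

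**Figure D4:**
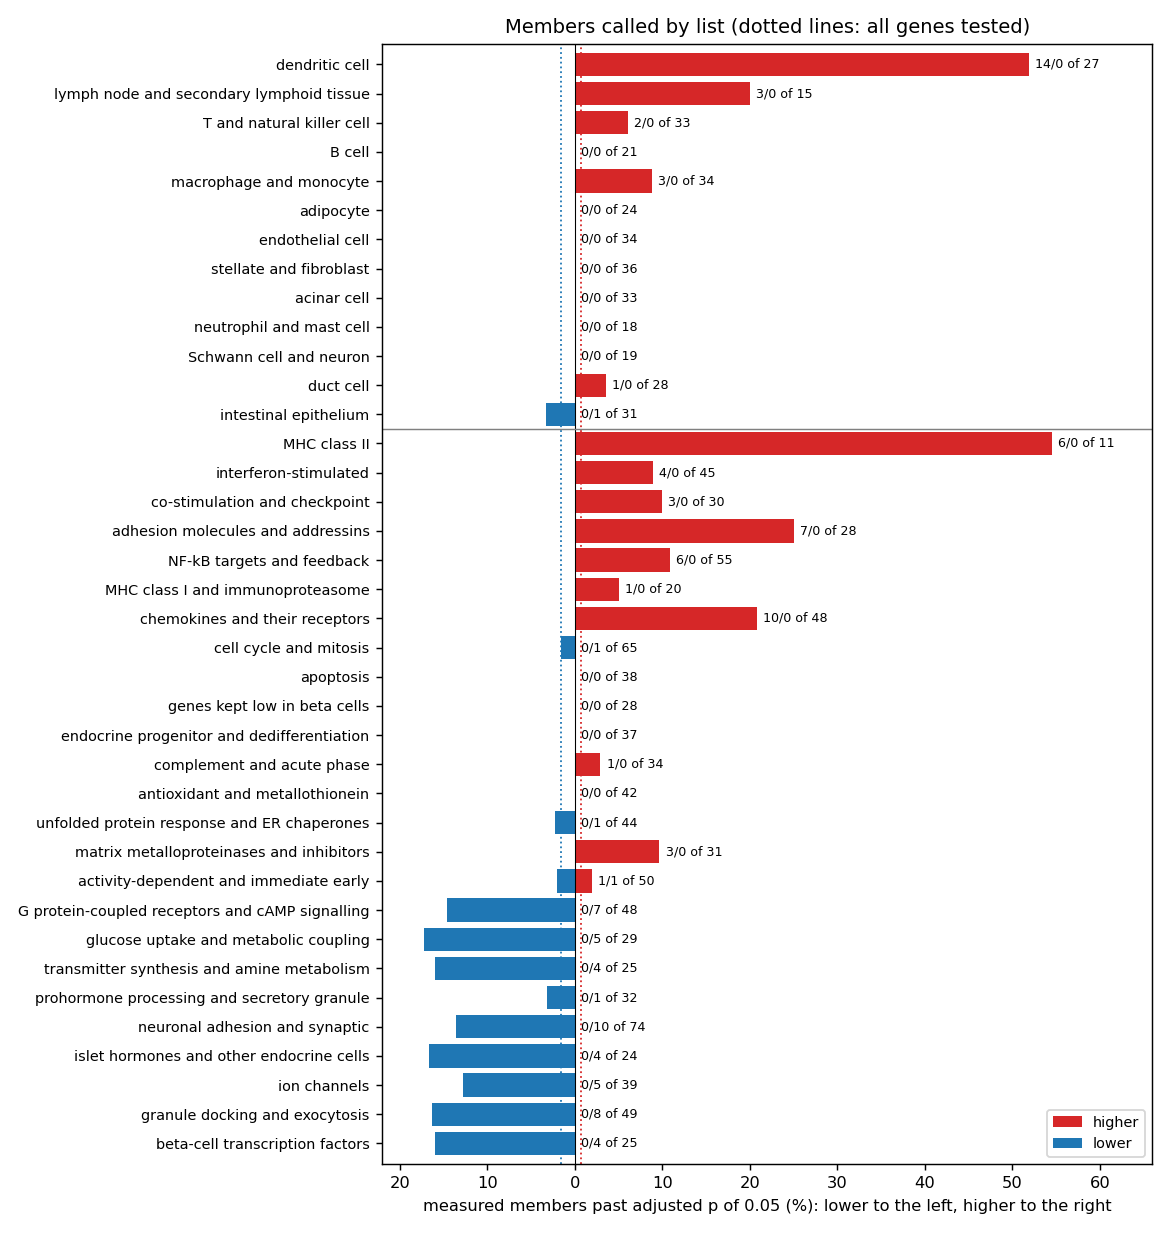
Share of the measured members of each list past an adjusted p of 0.05 (x axis, %; lower genes to the left in blue, higher genes to the right in red), with higher and lower counts of those measured beside each bar; cell type markers are above the grey line, and dotted lines give the shares over all genes tested. Immune lists extend to the right and islet function lists to the left.

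On the islet side, Pdx1 and a group of β-cell regulators were lower. Of 25 measured β-cell transcription factors 4 fell (16.0%, against 1.56% of all genes) and none rose, 22 had a negative difference, and the median was -0.48 (-0.27 in Pdx-1+/- islets). Pdx1 read 6.68, 6.86, 6.39, 7.44 and 5.97 on IKK2-CA arrays, 7.98, 7.67, 8.62, 8.46 and 8.42 on control arrays and 7.32, 7.10, 7.27 and 6.85 on Pdx-1+/- arrays. IKK2-CA and control arrays did not overlap, and Pdx1 was 2.96-fold lower (-1.56 ± 0.24, adjusted p = 0.0048). The Pdx-1+/- arrays lay below all control arrays (-1.09, adjusted p = 0.21) and within the range of the IKK2-CA arrays (adjusted p = 0.79 between the 2 groups). It is not known which part of the gene the driver allele replaces or whether the probes lie in it, so the level of Pdx1 cannot be read as that of the intact allele.

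Mafa, which drives insulin transcription in mature β-cells, read 6.83, 6.65, 6.83, 6.83 and 6.09 on IKK2-CA arrays against 7.5, 7.25, 8.16, 8.77 and 7.64 on control arrays, without overlap, and was 2.32-fold lower (-1.22 ± 0.23, adjusted p = 0.0172). Its Pdx-1+/- arrays read 6.73 to 6.94 (-1.0, adjusted p = 0.296). The other 2 factors that fell were Tshz1 (-0.72 ± 0.13, adjusted p = 0.0111) and the vitamin D receptor Vdr (-0.70 ± 0.16, adjusted p = 0.0402). Mafa lost its call without control array 3 (adjusted p = 0.0615), and Vdr without any array but control 2 or IKK2-CA 4 (adjusted p up to 0.106). The list had 2 calls without control array 3, and 9 without control array 2 or IKK2-CA array 4. Without the 3 arrays with genes of other tissues it had 2.

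**Figure D5:**
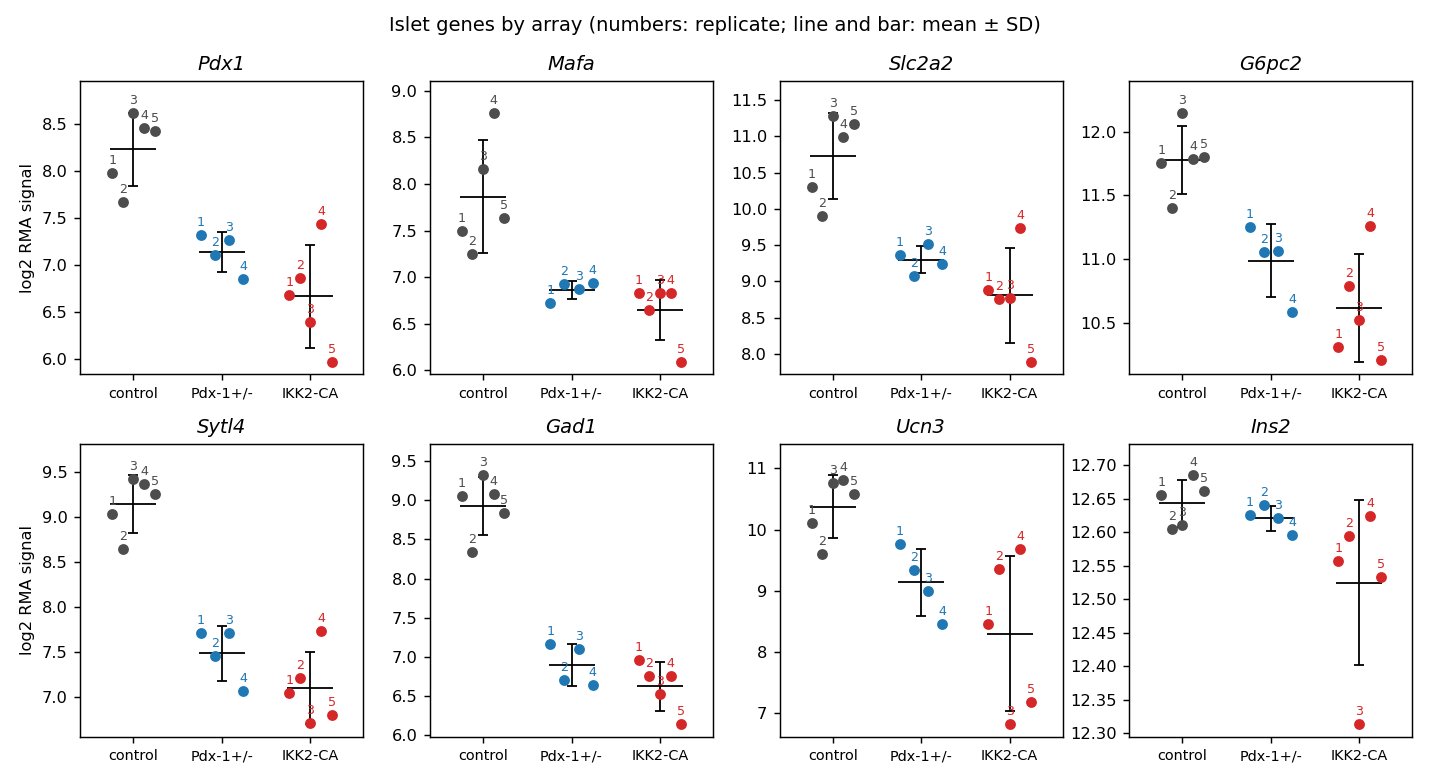
Log2 RMA signal (y axis) of 8 islet genes on each array of control, Pdx-1+/- and IKK2-CA islets (x axis); numbers are replicates, lines means and bars SD. For Pdx1, Mafa, Slc2a2, G6pc2, Sytl4 and Gad1 all 5 IKK2-CA arrays lie below all control arrays, Ucn3 overlaps through array 4, and Ins2 spans less than 0.4 units in all.

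Glucose entry and coupling genes had 5 falls among 29 (17.2%, against 1.56% of all genes) and no rise, although the list median was only -0.05. Slc2a2, the glucose transporter GLUT2 of mouse β-cells, read 8.88, 8.76, 8.78, 9.73 and 7.89 on IKK2-CA arrays and 10.30, 9.90, 11.28, 10.99 and 11.17 on control arrays. The groups did not overlap, and the fall was 3.79-fold (-1.92 ± 0.30, adjusted p = 0.00694); Pdx-1+/- arrays read 9.08 to 9.52 (-1.43, adjusted p = 0.188). Ppp1r1a, an inhibitor of protein phosphatase 1, fell 2.92-fold (-1.55 ± 0.23, adjusted p = 0.00465) and G6pc2, the islet glucose-6-phosphatase that opposes glucokinase, 2.23-fold (-1.16 ± 0.19, adjusted p = 0.00828). G6pc2 read 10.31, 10.79, 10.52, 11.26 and 10.21 on IKK2-CA and 11.75, 11.40, 12.15, 11.78 and 11.80 on control arrays, without overlap. The glycolytic enzymes Pkm (-0.44 ± 0.08, adjusted p = 0.0155) and Pfkm were the other members called. The count was 4 to 6 whichever array was left out.

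Granule docking and exocytosis genes had 8 falls among 49 (16.3%, against 1.56% of all genes) and no rise. The list median was -0.39 (-0.18 in Pdx-1+/- islets). The genes that fell were Sytl4, Mlph, Rab27a, Rab3a, Rab3b, Pclo, Syt9 and Rab37. RAB27A and RAB3 proteins hold insulin granules at the plasma membrane through effectors such as granuphilin, the product of Sytl4, and melanophilin, the product of Mlph. Sytl4 read 7.04, 7.21, 6.71, 7.73 and 6.80 on IKK2-CA arrays, 9.03, 8.64, 9.42, 9.36 and 9.25 on control arrays and 7.71, 7.46, 7.71 and 7.06 on Pdx-1+/- arrays. The IKK2-CA arrays lay below all control arrays (4.12-fold, -2.04 ± 0.20, adjusted p = 0.000195), and so did the Pdx-1+/- arrays (-1.66, adjusted p = 0.00363). Mlph fell 1.93-fold (-0.95 ± 0.11, adjusted p = 0.000895) and stood at the same level in Pdx-1+/- islets (-0.93, adjusted p = 0.00363). Rab27a was 1.71-fold lower (-0.78 ± 0.15, adjusted p = 0.0162), with IKK2-CA array 4 at 9.25 above control array 2 at 9.21, and Rab3a 1.46-fold (adjusted p = 0.0196). Rab27a lost its call without control array 3 or 4 and Rab3a without control array 1, 3 or 4 or IKK2-CA array 3 (adjusted p up to 0.053 and 0.0686). Each of the 10 arrays moved the list's count by over 1.5 times, from 2 without control array 3 or 4 to 18 without IKK2-CA array 4. The fit of only the 2 groups gave 5, and leaving out the 3 arrays with genes of other tissues gave 3.

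Of 39 ion channel and pump genes 5 fell (12.8%, against 1.56% of all genes) and none rose (median -0.22). Trpm5, a calcium-activated cation channel, read 6.27, 6.15, 5.89, 6.26 and 5.95 on IKK2-CA arrays against 6.66 to 7.24 on control arrays (1.69-fold, -0.76 ± 0.11, adjusted p = 0.00427). The calcium pumps of the endoplasmic reticulum Atp2a2 and Atp2a3 fell 1.74-fold and 1.95-fold (adjusted p = 0.0111 and 0.0251), Kcnmb2, a subunit of calcium-activated potassium channels, 2.15-fold (adjusted p = 0.0167), and the voltage-gated calcium channel gene Cacna1d was the fifth. Kcnmb2 lost its call without control array 3 (0.0587), and Atp2a3 without any array but control 1 or 2 or IKK2-CA 4 (up to 0.0875). Without control array 3 the list had 2 calls, without control array 4 or 5 or IKK2-CA array 1, 3 or 5 it had 3, and without control array 2 it had 12. Leaving out the 3 arrays with genes of other tissues gave 3.

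Hormones, fatty acids and nucleotides act on insulin secretion through G protein-coupled receptors, some of which raise and some of which lower it. Of 48 measured genes of these receptors and of cAMP signalling 7 fell (14.6%, against 1.56% of all genes) and none rose (median -0.04). Ffar1, the receptor of long-chain fatty acids, read 7.06, 6.94, 6.20, 7.66 and 6.16 on IKK2-CA and 8.26, 7.78, 8.82, 8.69 and 8.48 on control arrays, without overlap, and fell 3.04-fold (-1.60 ± 0.29, adjusted p = 0.014). Gcgr, the glucagon receptor, fell 2.00-fold (-1.0 ± 0.14, adjusted p = 0.00369), the ATP and ADP receptor P2ry1 1.99-fold (-0.99 ± 0.16, adjusted p = 0.00715) and the incretin receptor Gipr 2.34-fold (-1.23 ± 0.23, adjusted p = 0.014). Glp1r, the other incretin receptor, was also called, as were Galr1 and Ffar3, receptors of galanin and of short-chain fatty acids that inhibit insulin secretion. Ffar1 and Gipr lost their calls without control array 3 (adjusted p = 0.0509 and 0.0512), which left 2 calls in the list, and 4 were left without control array 4. Leaving out the 3 arrays with genes of other tissues gave 3.

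Enzymes of transmitters and amines that β-cells share with neurons had 4 falls among 25 (16.0%, against 1.56% of all genes) and no rise. The 4 were Gad1, Th, Maob and Abat, and the list median was -0.10. Gad1 makes γ-aminobutyric acid and had the smallest adjusted p of all genes, 8.42e-05. It read 6.96, 6.75, 6.52, 6.76 and 6.14 on IKK2-CA arrays, 9.06, 8.34, 9.32, 9.08 and 8.83 on control arrays and 7.17, 6.71, 7.09 and 6.64 on Pdx-1+/- arrays. Both groups lay below all control arrays, by -2.30 ± 0.19 (4.93-fold) and by -2.03 (adjusted p = 0.000791), and did not differ by test from each other (-0.28, adjusted p = 0.886). Th, tyrosine hydroxylase, fell 2.81-fold (-1.49 ± 0.15, adjusted p = 0.0002) and Maob, which breaks down amines, 2.65-fold (-1.40 ± 0.20, adjusted p = 0.00395). Abat, which breaks down γ-aminobutyric acid, fell 1.86-fold (adjusted p = 0.0455) and lost its call without any array but control 2 or IKK2-CA 4 (adjusted p up to 0.141).

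Of the 4 main islet hormones only Sst passed. Ins2 read 12.56, 12.59, 12.31, 12.62 and 12.53 on IKK2-CA and 12.60 to 12.68 on control arrays (-0.12 ± 0.07, adjusted p = 0.425), and Gcg (-0.12 ± 0.09, adjusted p = 0.573) and Ppy (-0.26 ± 0.20, adjusted p = 0.599) did not pass either. The highest signals on the arrays were 13.6 to 13.7, so these hormones, Sst included, lie near the top of the scale. Differences are compressed there, so a fall may read smaller than it was. Sst, somatostatin of the δ-cells, read 11.76, 11.87, 11.61, 12.29 and 11.99 against 12.06 to 12.78 and fell 1.59-fold with overlap (-0.67 ± 0.15, adjusted p = 0.0358). Of 24 genes of islet hormones and other endocrine cells 4 fell (16.7%, against 1.56% of all genes), Mafa, Sst, Rbp4 and Ucn3, and none rose (median -0.17). Ucn3, urocortin 3 of mature β-cells, read 8.46, 9.35, 6.82, 9.68 and 7.19 on IKK2-CA arrays and 10.11, 9.61, 10.77, 10.80 and 10.59 on control arrays. Array 4 alone overlapped with control, arrays 3 and 5 were lowest, and the difference was -2.07 ± 0.48 (4.21-fold, adjusted p = 0.0407). Rbp4 was 1.70-fold lower (adjusted p = 0.0384). Sst, Ucn3 and Rbp4 each lost their calls without most single arrays (adjusted p up to 0.119, 0.126 and 0.126, all without control array 3). The list had 0 calls without control array 3, 1 without control array 1, 4 or 5 or IKK2-CA array 1 or 3 and 2 without IKK2-CA array 2 or 5. It had 1 in the fit of only the 2 groups and 0 without the 3 arrays with genes of other tissues. Of 32 prohormone processing and granule genes 1 fell (3.1%), Slc30a8, the zinc transporter of insulin granules. It read 10.48, 10.40, 8.89, 10.66 and 9.40 against 10.95 to 11.77 (-1.44 ± 0.30, adjusted p = 0.0243). The call was lost without any control array but the second, or without IKK2-CA array 5 (adjusted p up to 0.0834). Without control array 2 or IKK2-CA array 4 that list had 4 calls.

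Promoter stretches of Th and Sst are shown because both genes fell and hold CTAATG, the core that PDX1 prefers, in capitals (RefSeq, GRCm38.p6, both on the - strand).
Th, chr7:142900129-142900188: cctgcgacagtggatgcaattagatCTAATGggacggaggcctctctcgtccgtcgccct
Sst, chr16:23890906-23890965: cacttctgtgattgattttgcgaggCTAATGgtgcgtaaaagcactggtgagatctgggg
CTAATG on either strand was found in 15 of 259 promoters of lower genes (5.79%), 1 of 101 of higher genes (0.99%) and 822 of all (5.28%). TGCTGA, a core that MAFA binds, was found in 31 of 259 (12.0%), 11 of 101 (10.9%) and 2247 of all (14.4%). The shares among lower genes were thus close to those of all promoters for both motifs.

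Genes of neuronal adhesion and synapses, many of which islet cells express, had 10 falls among 74 (13.5%, against 1.56% of all genes). None rose, and the list median was -0.15. The 10 were Spock1, Cntnap2, Cdh8, Robo1, Lrrn1, Robo2, Spock2, Cntn1, Nrcam and Syn1. Spock1, a testican proteoglycan, read 6.38, 6.43, 6.39, 7.05 and 6.54 on IKK2-CA arrays, 8.48, 7.86, 8.82, 8.97 and 9.23 on control arrays and 6.84, 6.75, 6.87 and 6.31 on Pdx-1+/- arrays, so that both groups lay below control (-2.12 ± 0.22, adjusted p = 0.00026, and -1.98, adjusted p = 0.00259). Cntnap2, a neurexin-like adhesion protein, differed by -1.74 ± 0.25 in IKK2-CA (adjusted p = 0.00395) and by -2.13 in Pdx-1+/- islets (adjusted p = 0.00363). Cdh8, a cadherin, fell 2.58-fold and Robo1, a SLIT receptor that helps keep islet architecture, 1.85-fold (adjusted p = 0.0071 and 0.00955). The list had 6 calls without control array 1, 3, 4 or 5 or IKK2-CA array 2 or 3, and also without the 3 arrays with genes of other tissues.

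The 2 largest falls were of genes outside these lists, Fam151a and Tmem215. Fam151a read 6.84, 6.70, 6.30, 6.90 and 5.82 on IKK2-CA arrays, 9.09, 9.04, 10.22, 10.03 and 9.85 on control arrays and 7.58, 7.24, 8.16 and 6.77 on Pdx-1+/- arrays. It was 8.77-fold lower in IKK2-CA (-3.13 ± 0.29, adjusted p = 0.000153) and differed by -2.21 in Pdx-1+/- islets (adjusted p = 0.00828). Tmem215, a membrane protein, fell 5.97-fold (-2.58 ± 0.26, adjusted p = 0.0002) beside -2.22 in Pdx-1+/- islets (adjusted p = 0.00363). Angptl7, a secreted angiopoietin-like protein, read 6.42 to 7.02 on IKK2-CA, 8.36 to 9.25 on control and 6.37 to 7.19 on Pdx-1+/- arrays (-2.11 ± 0.19, adjusted p = 9.29e-05, and -1.95, adjusted p = 0.000791). Of other genes in no list, Prss53, a serine protease, fell 3.91-fold, Car10, a relative of carbonic anhydrases, 3.28-fold and the sialyltransferase gene St8sia5 3.21-fold (adjusted p = 0.000729, 0.00938 and 0.000444). In the Pdx-1+/- comparison 19 genes were called lower (0.0953%) and 0 higher (limma; 695 and 245 at an unadjusted p under 0.05).

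Activity-dependent and immediate early genes had 1 call each way among 50 (median 0.01). That is 2.0% each way, against 0.682% higher and 1.56% lower over all genes. Npas4, an activity-induced transcription factor of neurons and β-cells, read 6.78, 6.81, 5.49, 7.17 and 5.82 on IKK2-CA arrays and 8.54, 7.5, 9.34, 8.63 and 7.84 on control arrays, without overlap, and fell 3.88-fold (-1.96 ± 0.36, adjusted p = 0.0143). Nr4a2, an orphan nuclear receptor, was 1.53-fold higher (0.62 ± 0.14, adjusted p = 0.0384), with 1 control array within the IKK2-CA range, and lost its call without any array but control 4 or IKK2-CA 3 or 4 (adjusted p up to 0.106).

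Several programmes often discussed in diabetic islets had no or 1 call. Of 44 unfolded protein response genes only Wfs1 passed, lower by -0.56 ± 0.12 (adjusted p = 0.025). That is 2.27% of the list, against 1.56% lower over all genes, and the list median was 0.04. None of 42 antioxidant genes, 38 apoptosis genes, 37 endocrine progenitor and dedifferentiation genes or 28 genes kept low in β-cells passed, with medians of 0.10, 0.21, 0.13 and 0.14. At an unadjusted p under 0.05 in limma, 8, 15, 5 and 8 of them were higher and 1, 0, 1 and 0 lower. Over all 19938 genes the counts at that p were 1236 higher and 1888 lower. Without IKK2-CA array 4 the calls were 2 antioxidant, 3 apoptosis and 2 progenitor genes, all higher, and without IKK2-CA array 1 there was 1 apoptosis call. The members with the smallest p were, in these lists, Ncf4 (0.85, adjusted p = 0.101) and Ncf1 (0.72, adjusted p = 0.128), subunits of the phagocyte oxidase; Casp8 (0.49, adjusted p = 0.0513), the initiator caspase of death receptors, and Pmaip1 (0.48, adjusted p = 0.0993); Mycl (0.47, adjusted p = 0.0655) and Smoc1 (0.70, adjusted p = 0.0796); and Lmo4 (0.40, adjusted p = 0.138) and Rest (0.28, adjusted p = 0.178). A difference that missed the threshold does not show that the groups were equal. Of 65 cell cycle genes 57 had a positive difference (median 0.26) and 1 passed, as lower (1.54%, against 1.56% of all genes). It was Ccnd2, the cyclin of β-cell growth, 1.60-fold lower (-0.68 ± 0.15, adjusted p = 0.026). Averaged over the cell cycle list, IKK2-CA arrays 3 and 5 lay 0.457 and 0.509 above the control mean, array 2 0.205 and arrays 1 and 4 0.061 and 0.028, and control arrays lay between -0.098 and 0.084. Without IKK2-CA array 4 the list had 11 higher calls and without IKK2-CA array 1 it had 7. At an unadjusted p under 0.05 in limma, 31 of the 65 cell cycle genes were higher and 2 lower. Under array median centring and under quantile normalization 1 apoptosis and 1 cell cycle gene passed as higher. The calls for Wfs1 and Ccnd2 were lost without most single arrays, among them control array 3 (adjusted p = 0.0826 and 0.0834).

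Markers of non-endocrine pancreas and neighbouring tissue had few calls. None of 33 acinar, 34 endothelial, 36 stellate and fibroblast, 19 Schwann cell and neuron or 24 adipocyte markers passed, with medians of 0.05, 0.11, 0.06, 0.02 and 0.19. At an unadjusted p under 0.05 in limma, 0, 9, 1, 1 and 1 were higher and 0, 2, 0, 3 and 0 lower. Over all 19938 genes 1236 were higher and 1888 lower at that p. Without control array 4 the endothelial list had 1 higher call, and without IKK2-CA array 4 it had 2 lower calls. The acinar markers averaged -0.509 on IKK2-CA array 5 and 0.602 on array 3, against -0.253 to 0.325 on control arrays, so acinar marker levels varied among arrays of one group. Reg3g, an antimicrobial lectin of stressed acinar cells, spread from 6.53 to 11.77 on IKK2-CA and from 5.66 to 8.63 on control arrays (1.99 ± 1.05, adjusted p = 0.399). Vwf and Erg, 2 endothelial genes, differed by 0.76 and 0.33 (adjusted p = 0.0651 and 0.102). Of 28 duct markers 1 rose (3.57%, against 0.682% of all genes). Tspan8 was 1.45-fold higher (0.54 ± 0.13, adjusted p = 0.0442), beside 0.69 in Pdx-1+/- islets (adjusted p = 0.0957), and lost its call without any array but IKK2-CA 2. Of 31 intestinal markers 1 fell (3.23%, against 1.56% of all genes). Olfm4 was 2.21-fold lower (-1.14 ± 0.23, adjusted p = 0.0214) and lost its call without control array 1, 3 or 4 or IKK2-CA array 3. The part of other tissues in the islet and immune results was examined only through the acinar covariate and by leaving out the 3 arrays with high markers of other tissues.

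The IKK2-CA arrays were not alike. Over the 136 genes that rose, the median deviation from the control mean was 0.683, 0.827, 1.14, 0.711 and 1.96 on arrays 1 to 5, and array 5 was the highest IKK2-CA array for 117 genes. Over the 312 genes that fell it was -0.71, -0.69, -0.869, -0.419 and -0.776, with array 4 nearest to control and the highest IKK2-CA array for 214 genes. On Pdx-1+/- arrays 1 to 4 the same medians were 0.117, 0.0536, 0.041 and 0.0117 for the genes that rose, and -0.365, -0.405, -0.381 and -0.644 for the genes that fell. Pdx-1+/- array 4, the lowest for the falls, was the array with the highest intestinal markers. The genes were chosen by the IKK2-CA difference from the same control arrays, so these medians are a description of the arrays and not a test.

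The driver allele sits at Pdx1 on chromosome 5. Among the 50 tested genes nearest to Pdx1, 25 on each side, 1 was higher and 1 lower, with a median difference of 0.0117. Over all genes 0.682% were higher and 1.56% lower, and 1 gene each way is too few to compare with these shares. The higher gene was Flt3, the third tested gene from Pdx1, which is also a dendritic cell marker. It read 6.48, 6.27, 6.67, 5.91 and 7.51 on IKK2-CA arrays, 5.15, 5.65, 5.16, 5.28 and 5.24 on control arrays and 4.96 to 5.39 on Pdx-1+/- arrays. The difference from control was 1.27 ± 0.22 in IKK2-CA (2.42-fold, adjusted p = 0.0111) and -0.03 in Pdx-1+/- islets. The cause of this rise was not tested. The lower gene was Tex26 (-0.41 ± 0.08, adjusted p = 0.0207), at 4.10 to 4.48 against 4.51 to 4.81 on control and 4.24 to 4.42 on Pdx-1+/- arrays (-0.36, adjusted p = 0.254). Its call was lost without control array 3, 4 or 5 (adjusted p up to 0.0723). By chromosome, over the autosomes and the X chromosome, the share of tested genes that were lower ran from 0.637% on chromosome 6 to 2.46% on chromosome 5 (1.56% over all genes). The share higher ran from 0.296% on chromosome 19 to 1.07% on chromosome 1 (0.682% over all genes).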

How the data were processed

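Islet RNA of 14 arrays (control 5, Pdx-1+/- 4, IKK2-CApdx-1 5) was, per the labels' protocols, extracted with RNeasy, labelled by the Whole Transcript Sense method and read on the Mouse Gene 1.0 ST array of Affymetrix. The authors deposited 1 log2 signal for each transcript cluster and array, made with Affymetrix Expression Console by robust multichip averaging (RMA), per the labels and the submitters' processing notes. No version is given in the sources used here, and the log base was read from the range of the values. RMA corrects background and sets the arrays to one distribution, which compresses differences near the lowest and highest signals.

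Of 35556 clusters, the platform annotation lists 23410. Those with 1 symbol (21789) were kept, while those with several (1621) or not listed (12146) were not tested as genes. Where a gene had more than 1 cluster (999 genes), that of highest mean over all arrays stood for it, which left 19938 genes. No filter or further normalization was applied. The test was limma 3.58.1's lmFit and eBayes (R 4.3.3) in 1 fit of 3 group means, with 11 residual and 3.46 prior degrees of freedom, and p-values were adjusted by Benjamini-Hochberg over all genes at a threshold of 0.05. SE is the moderated standard error, and folds are log2 differences put on the linear scale. The fit was tested on simulated data. The number of arrays limits the precision.

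Lists were described by counts and medians, with no test. List members and named genes follow a rule: the 15 largest rises and falls among called genes without overlap, Pdx1, Ikbkb, Ins2, Gcg, Sst and Ppy, up to 4 called members of each list with the smallest p (2 with the smallest p where none was called) and called neighbours of Pdx1. Genes that a list's count names, the chemokine genes of chromosome 8, the sex-linked genes and those of the closing observations were named after their values were seen. The comparison, lists and members were chosen with earlier results of these data known. Clusters were placed and promoters (250 bases before the start) taken from RefSeq, GRCm38.p6; 2628 genes have several promoter entries, of which the first was used.

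Same-numbered arrays did not deviate together (correlations of -0.258 to 0.19 after removing group means), so no pairing was used. Alternatives were array median centring, quantile normalization, trend and robust eBayes, only the 2 groups, the lowest 30% of genes left out, all clusters tested singly, averaging the clusters of each gene, weighting arrays, a block for the replicate number, the acinar marker mean as covariate, each array left out and the 3 arrays with markers of other tissues left out; the block in a fit of the 2 groups alone was added after seeing the data.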

Additional observations from a re-analysis of the deposited data

Results flagged for a closer look

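Among 290 sets of 5 arrays (107 named genes and 38 lists, in the control and in the IKK2-CA group), 20 held an array far from the other 4 by Dixon's gap test at 95%. Chance flags about 1 set in 20, and the sets share arrays.

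IKK2-CA array 5 was the distant one in 11 sets. It stood above the others for Itgax (9.36 against 7.29 to 7.80), Klrb1b (9.13 against 7.57 to 7.81), Casp8 (9.82 against 9.10 to 9.30), Ciita (7.67 against 6.39 to 6.73), Il2ra (6.96 against 5.38 to 5.75), Adam8 (8.20 against 7.15 to 7.44) and Plbd1 (10.31 against 8.91 to 9.29). It stood below them for Mafa, at 6.09 against 6.65 to 6.83. The same array lay highest for the list means of adhesion molecules (1.267 against 0.339 to 0.526), dendritic cell markers (1.638 against 0.600 to 0.834) and adipocyte markers (1.664 against -0.338 to -0.024).

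IKK2-CA array 4 lay above the others for Spock1 (7.05 against 6.38 to 6.54) and Rab27a (9.25 against 8.72 to 8.81), and array 3 below them for Nr4a2 (8.96 against 9.24 to 9.31). In the control group array 1 was low for Dnase1l3 (4.84 against 5.17 to 5.26) and Tnc (4.67 against 5.17 to 5.30), and array 2 was high for Flt3 (5.65 against 5.15 to 5.28). Control list means stood apart for intestinal markers on array 3 (0.933 against -0.278 to -0.167), endothelial markers on array 4 (0.282 against -0.084 to -0.044) and unfolded protein response genes on array 5 (0.16 against -0.072 to -0.005).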

How the results depend on the processing

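No called gene changed direction under any of the 22 alternatives, and 32 of the 81 named genes past the threshold passed in every one, among them Ccl17, Ccl22, Itgax, Klrb1b, Gad1, Sytl4, Slc2a2 and Pdx1. The counts were less stable than the directions. Against 136 higher and 312 lower genes, a fit of only the 2 groups gave 68 and 173, every transcript cluster 111 and 204, array weights 386 and 1045, an acinar covariate 279 and 289, and leaving out the 3 arrays with markers of other tissues (IKK2-CA array 5, control array 3 and Pdx-1+/- array 4) 93 and 93. Centring, quantile normalization, trend and robust eBayes, the filter and the mean of clusters kept both counts within 1.5 times, with 30.6% to 36.7% of calls higher against 30.4%. Leaving out 1 array gave 41 to 324 higher and 79 to 656 lower genes. These fits kept 120 (without control array 3) to 438 (without IKK2-CA array 4) of the 448 calls. The replicate numbers did not pair the arrays: as a block they gave 91 and 106, and 45 and 68 in the fit of the 2 groups alone; 189 and 105 of the 448 calls remained. Signals near background limit which low genes can be seen. The cause of these shifts was not tested.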

Other observations

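Genes outside the lists, chosen after their values were seen, add to both sides of the comparison. Gjd2, connexin 36, through which β-cells are electrically coupled, read 8.60, 8.92, 7.58, 9.56 and 8.03 on IKK2-CA arrays and 9.65, 9.58, 10.37, 9.88 and 10.14 on control arrays. The groups did not overlap, by a margin of 0.02, and the fall was 2.62-fold (limma adjusted p = 0.0375). Insrr, a receptor of the insulin receptor family, fell 3.03-fold (-1.60 ± 0.37, adjusted p = 0.0397) and Igf1r 1.53-fold (-0.62 ± 0.11, adjusted p = 0.014), while Insr differed by 0.18 (adjusted p = 0.563). The calls for Gjd2 and Insrr were lost without any 1 of control arrays 1, 3, 4 and 5 or IKK2-CA arrays 3 and 5, and that for Gjd2 also without IKK2-CA array 1 (adjusted p up to 0.126 and 0.127). Igf1r was tight among control arrays, at 9.0 to 9.06, and read 8.45, 8.60, 7.97, 8.64 and 8.38 on IKK2-CA arrays. On the other side, Cldn1, a tight junction protein, was 3.47-fold higher (7.95, 7.43, 7.60, 7.72 and 8.97 against 5.70 to 6.5, adjusted p = 0.011). Kmo, an enzyme of tryptophan breakdown, was 2.94-fold higher (adjusted p = 0.00485), and Crp, the acute phase C-reactive protein, 2.92-fold (adjusted p = 0.0224), a call lost without control array 1, 3 or 4 (up to 0.0686). In Pdx-1+/- islets Cldn1, Kmo and Crp differed from control by 0.01, 0.10 and 0.57.

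Of 40 imprinted genes listed after Nnat and Rasgrf1 had been seen among the falls, 32 were measured. Of these, 4 fell (Nnat, Rasgrf1, Zim1 and Meg3) and none rose, against 1.56% lower and 0.682% higher over all genes. The median difference was -0.13, and the list gets no test because values prompted it. Zim1 and Meg3 lost their calls without any 1 of control arrays 1, 3, 4 and 5 or IKK2-CA arrays 3 and 5, and Zim1 also without IKK2-CA array 1 (adjusted p up to 0.12 and 0.126). Rasgrf1, a Ras exchange factor, read 6.00, 6.25, 6.12, 6.64 and 6.26 on IKK2-CA and 7.47, 6.93, 7.82, 7.67 and 7.49 on control arrays, without overlap (2.33-fold lower, adjusted p = 0.00118), beside -1.10 in Pdx-1+/- islets (adjusted p = 0.0105). Nnat, neuronatin, which is needed for insulin processing, was 2.16-fold lower (adjusted p = 0.00243), beside -0.89 in Pdx-1+/- islets (adjusted p = 0.0485). Peg3 (-0.90, adjusted p = 0.075) and Peg10 (-0.48, adjusted p = 0.0892) did not pass.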
